A study of Mus musculus with 9 samples.

Results

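Glutathione and antioxidant genes were followed in Cebpb-ko MEFs, immortalised mouse embryonic fibroblasts that lack functional C/EBPβ. The members were all gene symbols of the count table that name a glutathione-synthesis enzyme, glutathione peroxidase, soluble or membrane glutathione transferase, peroxiredoxin or sulfiredoxin, thioredoxin-system protein, superoxide dismutase, catalase, quinone reductase, haem oxygenase or NRF regulator, 60 of 23337 symbols. The rule reads the symbols and no expression value, but it was chosen with earlier results of these data known. RNA was sequenced from 3 libraries each of cells that stably carry the empty vector (EV), the long C/EBPβ isoform LAP or the short isoform LIP, all of the background C57BL/6 x 129. The cells of all 3 groups share the Cebpb knockout, so EV stands for cells without C/EBPβ and not for wild-type fibroblasts. The isoforms were introduced as rat cDNAs into an immortalised line and selected with Zeocin, and whether the libraries of a group came from separate cultures is not given in the sources used here, so p-values measure the spread between these libraries, which may be technical.

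Translation of a single Cebpb transcript can begin at more than one site, and the later site gives the shorter protein, LIP. LAP holds the activation domains, while LIP keeps the DNA-binding and dimerisation domain and can oppose LAP at shared sites. Glutathione is made from glutamate, cysteine and glycine, used by peroxidases to reduce peroxides and by transferases to conjugate electrophiles, and regenerated with NADPH. Thioredoxins and peroxiredoxins form a parallel reducing system. Many genes of both systems are targets of the transcription factor NRF2 (Nfe2l2), which KEAP1 holds in check and which acts through antioxidant response elements.

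Per library, between 24839139 and 33522082 reads were counted on genes, and 3 counts, the floor used here, stood for 0.0895 to 0.121 CPM, the read count divided by the scaled library size. This floor covers counting error only. Mouse Cebpb received between 684 and 1077 counts in all 9 libraries, and no wild-type library was there for comparison, so these counts do not check the labels. Fibroblast markers led in all groups: the 11 listed summed to 35260 to 39729 CPM in EV, 29442 to 43171 in LAP and 17012 to 30253 in LIP. Ptprc, Pecam1, Plin1, Myod1 and Ttr, which mark other cell types, were at 0 counts in all libraries, but other markers of their lists were counted. The highest sums in any library were 8.91 CPM for haematopoietic (LIP), 3.64 for endothelial (LAP) and 2.61 for adipocyte markers (EV). For muscle and hepatocyte markers they were 2.11 (EV) and 0.555 CPM (LAP). The 5 epithelial markers, mainly Krt8, summed to 402 to 481 CPM in EV, 389 to 742 in LAP and 505 to 797 in LIP. The library LAP 2 stood apart. Across 10436 genes, its deviation from the LAP mean fell with exon length (Spearman's rho -0.427 across genes). In the EV and LIP libraries, taken against their own group means, rho lay between -0.101 and 0.114. The values of LAP 1 (0.207) and LAP 3 (0.354) are not independent of it, since the LAP mean includes LAP 2. The 60 members summed to 6911 CPM in LAP 2, while the other 8 libraries lay between 4360 and 4859 CPM. Fold changes and counts that rest on LAP were therefore also computed without LAP 2, and that value is given beside the result where it changed the sign or the call or moved the size by over 1.5 times.

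The 250 bases upstream of the start site are shown for Gpx7 and Nqo1, which passed the test of LIP against LAP, for Mgst1, which passed it with the libraries paired, and for Gclm, which was not called. They are RefSeq sequences on GRCm38.p6, 5′ to 3′ on the gene's strand, with matches to the searched motifs in capitals.
Gpx7 (chr4:108406714-108406963, minus strand): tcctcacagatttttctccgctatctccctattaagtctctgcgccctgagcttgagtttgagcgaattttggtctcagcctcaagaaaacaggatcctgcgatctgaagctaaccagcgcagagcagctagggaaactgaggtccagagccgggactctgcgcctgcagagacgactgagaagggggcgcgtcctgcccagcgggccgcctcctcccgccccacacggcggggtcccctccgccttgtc
Nqo1 (chr8:107403206-107403455, minus strand): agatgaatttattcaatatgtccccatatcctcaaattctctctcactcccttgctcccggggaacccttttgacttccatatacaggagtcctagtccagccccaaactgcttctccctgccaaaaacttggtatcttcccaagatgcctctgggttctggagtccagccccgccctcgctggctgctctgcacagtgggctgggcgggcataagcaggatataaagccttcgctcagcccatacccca
Mgst1 (chr6:138140277-138140526, plus strand): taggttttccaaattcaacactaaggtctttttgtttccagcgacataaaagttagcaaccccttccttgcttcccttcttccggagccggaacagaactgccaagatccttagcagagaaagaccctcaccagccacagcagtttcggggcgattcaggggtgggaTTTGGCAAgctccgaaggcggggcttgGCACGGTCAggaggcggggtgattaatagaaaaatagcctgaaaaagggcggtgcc
Gclm (chr3:122245307-122245556, plus strand): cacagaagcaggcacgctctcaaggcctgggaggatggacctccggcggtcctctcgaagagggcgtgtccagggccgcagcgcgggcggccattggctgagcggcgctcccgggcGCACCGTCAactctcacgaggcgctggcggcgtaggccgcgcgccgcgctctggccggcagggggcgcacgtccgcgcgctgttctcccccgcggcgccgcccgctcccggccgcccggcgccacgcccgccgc
The motifs were the antioxidant response element core TGACNNNGC, the AP-1 site TGANTCA and the C/EBP site TTGCNNAA, searched on both strands of windows that also held 50 bases after the start. An element core can overlap an AP-1 site, as in the window of Prdx1. Gclm held an element core 134 bases before the start. Mgst1 held an element core 56 bases and a C/EBP match 83 bases before its first listed start, and its other window held none. None of the 3 motifs occurred in the windows of Gpx7 or Nqo1, which says only that these letters are not there. No window was listed for the other 7 members (Gclc, Gsr, Gsta4, Gstt2, Hmox1, Prdx6 and Sod3), among them Sod3, which was called lower in LIP against EV. Over the 74 windows of the 53 members listed, 10 (13.5%) held the element core, against 12.4% of 32851 windows of all genes. The AP-1 site was in 7 (9.46%, against 7.81%) and the C/EBP site in 5 (6.76%, against 10.8%).

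The mean over all 9 libraries reached 20 counts for 42 of the 60 members and 1000 counts for 24. Gpx6, Gsta1 and Txnrd3 had 0 counts in all libraries, and Gpx2, Gpx5, Gsta2 and Gstm3 never exceeded 3 counts. Another 11 stayed low (Gpx3, Gsta3, Gstk1, Gstm4, Gstm6, Gstm7, Gsto2, Gstp2, Gstt2, Gstt4 and Gstz1). Per kilobase of exon, the highest mean levels over all 9 libraries were those of Sod1 with 619 CPM, Txn1 with 498 CPM, Prdx1 with 318 CPM and Prdx2 with 283 CPM. Such levels depend on how reads of genes with several transcripts were counted. Among members with 1 curated RefSeq mRNA, 16 of 33 reached 50 CPM, but only 1 of 9 with 4 or more did (Mgst1), and over all genes these shares were 22.3% and 16.5%. Whether counting lowered Txnrd1, Keap1, Nfe2l1, Hmox2 and Nqo2, each with 4 or more mRNAs, was not tested.

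Summed by role, LIP overlapped EV in 8 of the 9 role groups, as the plot of summed levels by role shows. The 7 peroxiredoxin and sulfiredoxin genes summed to 2014 CPM in EV (SD 66.4) and to 2007 CPM in LIP (SD 106), with 3 libraries each. LAP 2 reached 3348 CPM, against 1990 and 1961 CPM in the other LAP libraries. The exception was the group of superoxide dismutases and catalase. It summed to 561 to 661 CPM in EV, 594 to 661 CPM in LAP and 408 to 557 CPM in LIP. LIP lay below both other groups, but LIP 3 (556.7 CPM) came close to EV 1 (560.6 CPM). Most of this sum was Sod1, which overlapped EV, with 296 to 378 CPM in LIP and 364 to 444 CPM in EV. Of the 11535 single genes that averaged 20 counts or more, 18.9% also showed no overlap of LIP with EV, in either direction.

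**Figure D1:**
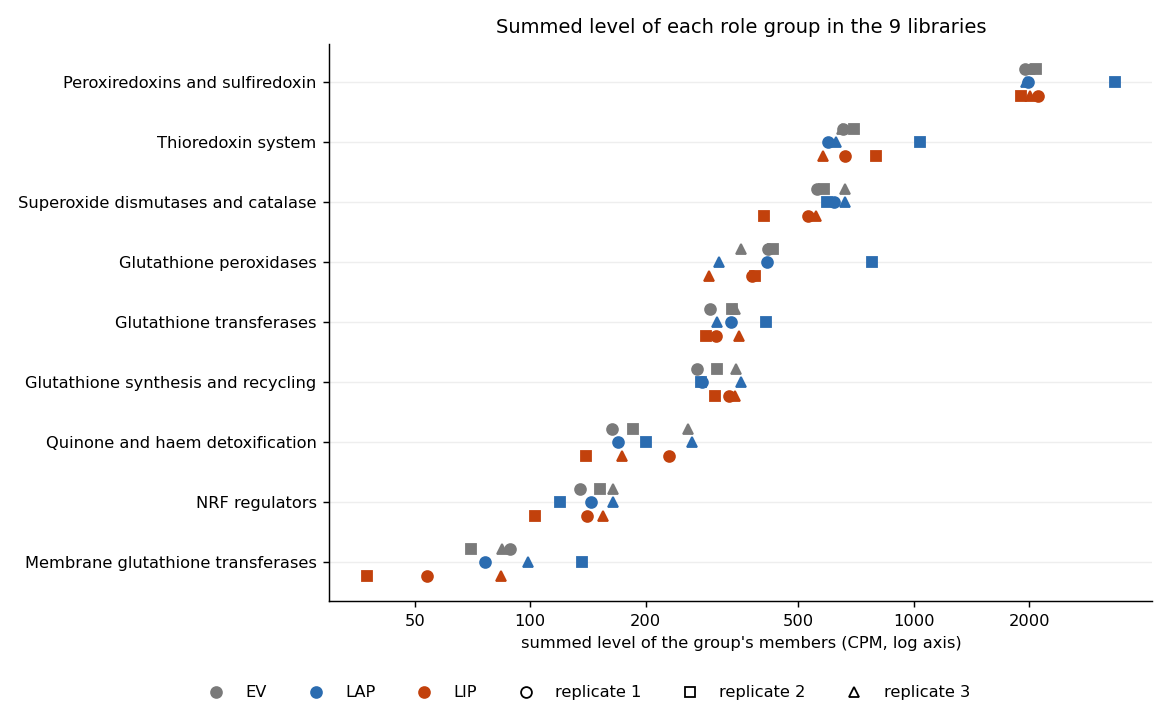
Summed level in CPM (log axis) of the members of each role group, with 1 point per library, colour for the group and shape for the replicate number. The square of LAP 2 lies to the right of the other libraries in the peroxiredoxin row, at 3348 CPM against 1900 to 2113 CPM.

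Expression of the members was compared between groups to ask whether either isoform shifts the antioxidant genes. Each comparison was fitted over all genes with edgeR's quasi-likelihood test, and adjusted p refers to Benjamini-Hochberg adjustment over all genes tested. The 3 comparisons share libraries and are not independent. In LIP against EV, 2 members were called lower at an adjusted p under 0.05, Gpx7 and Sod3, and 0 higher. Over all genes, 0.396% of 18203 were called, 0.33% lower. In LAP against EV, edgeR called 0 members, with 0.0606% of 18156 genes called. DESeq2 and edgeR's exact test also called 0, and an unadjusted p under 0.05 was reached by Gstk1 (log2 fold change 1.73) and Gstm4 (-1.43), both below 20 counts in every library. In LIP against LAP, Gpx7 and Nqo1 were called lower and 0 members higher, with 1.05% of 18166 genes called, 0.837% lower. Without LAP 2, 0 members and 7 genes in all were called there. When genes with few counts were removed by edgeR's filterByExpr, 0 members passed in either comparison with LIP (4 and 2 genes were called in all), and the adjusted p of Gpx7 was 0.129 against EV and 0.155 against LAP.

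The members were also read against all genes of like depth. Among the 42 that reached a mean of 20 counts, 27 lay below 0 in LIP against EV, with a median log2 fold change of -0.17 against 0.01 over the 11535 genes of that depth, and 35 lay within 0.5 of 0. An unadjusted p under 0.05 was reached by 5, all lower, which is 11.9% against 14.2% of those genes. The groups did not overlap in CPM for 7 members (16.7%, against 18.9%). In LAP against EV, 28 of 42 lay above 0, with a median of 0.12 against 0.00, and the median was 0.02 without LAP 2. No member reached an unadjusted p under 0.05 (0 of 42, against 3.49% of those genes), and the groups did not overlap for 1 of them, Gstt3 (2.38%, against 7.69%). Without LAP 2 these numbers were 1 member (2.38%, against 2.23%) and 4 members (9.52%, against 14%). Between LIP and LAP, 33 of 42 lay below 0, with a median of -0.23 against 0.00, and without LAP 2 it was -0.16 with 29 below 0. Here an unadjusted p under 0.05 was reached by 5 (11.9%, against 11.6%) and 6 did not overlap (14.3%, against 14.8%). Without LAP 2 the numbers were 4 (9.52%, against 9.05%) and 10 (23.8%, against 23.8%).

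**Figure D2:**
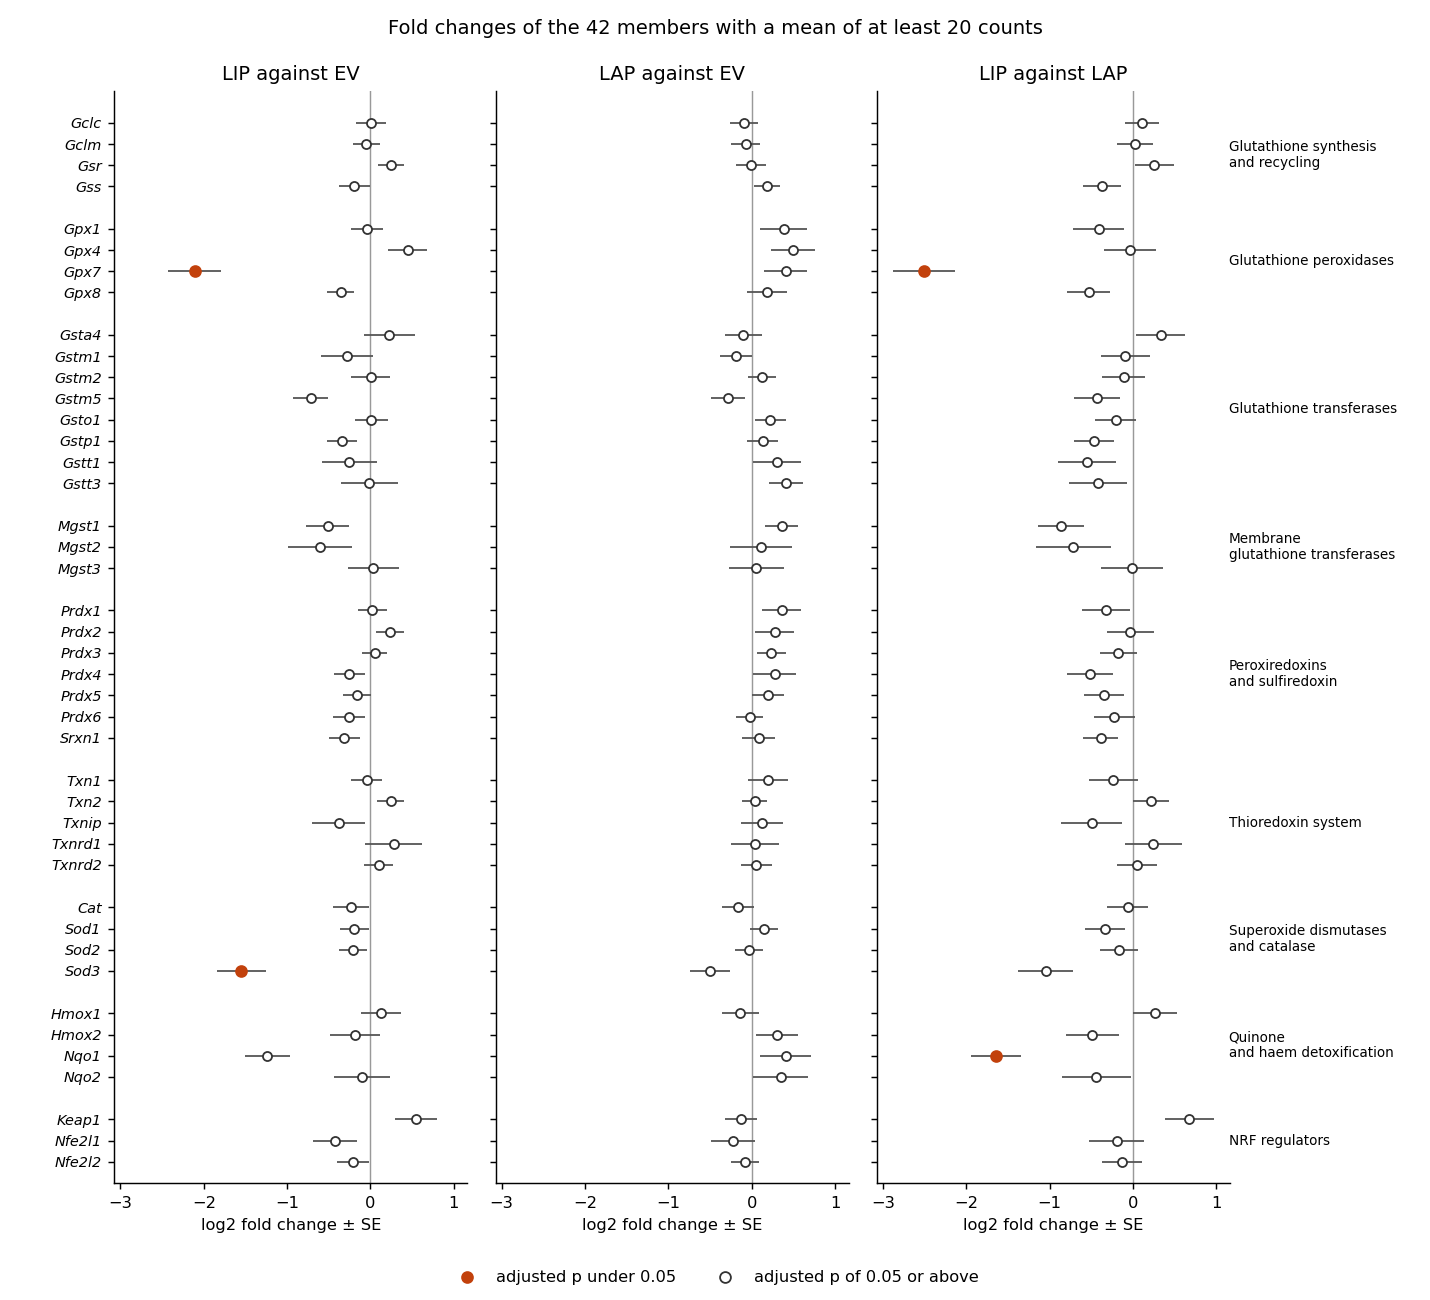
Log2 fold change with its SE for the 42 members that reached a mean of 20 counts, in the 3 comparisons, ordered by role, with filled points for an adjusted p under 0.05. Gpx7 and Sod3 are filled in LIP against EV and Gpx7 and Nqo1 in LIP against LAP, all to the left of 0, and no point is filled in LAP against EV.

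The glutathione peroxidases held the largest called change. Gpx7 (chr4:108400217-108406713 on GRCm38.p6) encodes a peroxidase of the endoplasmic reticulum that passes oxidising equivalents to protein disulfide isomerase. It had 14.7, 14.4 and 16.6 CPM in EV, 21.3, 28.9 and 11.1 CPM in LAP and 5.55, 3.11 and 1.97 CPM in LIP. All LIP libraries lay below all others, while LAP straddled EV, with LAP 2 highest. The log2 fold change was -2.11 ± 0.32 (SE) in LIP against EV, 4.32-fold lower, with an adjusted p of 0.0152. Against LAP it was -2.51 ± 0.37, with an adjusted p of 0.00357. LAP against EV gave 0.41 ± 0.26, with an adjusted p of 0.918, and 0.09 without LAP 2. An exact permutation test of the CPM gave p = 0.1 for either comparison with LIP, the smallest that 3 libraries against 3 allow. The call against EV was lost without EV 2 (adjusted p 0.0751) and without LIP 2 (0.0779), and the call against LAP without LAP 2 (0.0908), with log2 fold changes of -2.14, -2.03 and -2.20. No exon of Gpx7 overlapped another gene and none of its 50-base stretches occurred in another transcript.

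The other peroxidases did not pass. Gpx8, the other peroxidase of the endoplasmic reticulum, had 171, 194 and 148 CPM in EV, 157, 294 and 138 CPM in LAP and 149, 122 and 128 CPM in LIP. Its log2 fold change in LIP against EV was -0.36 ± 0.16, with an adjusted p of 0.454. The level of LIP 1 lay within the EV range. Gpx1, the abundant cytosolic peroxidase, had 174 to 217 CPM in EV, 146 to 422 CPM in LAP and 143 to 231 CPM in LIP, and LAP 2 was the highest. Without LAP 2, the log2 fold change in LAP against EV was -0.11 for Gpx1 and -0.21 for Gpx8. Gpx4, which reduces lipid hydroperoxides, had 15.7, 15.1 and 15.7 CPM in EV, 15.6, 35.4 and 15.2 CPM in LAP and 14.8, 28.8 and 19.6 CPM in LIP. Its log2 fold change was 0.45 ± 0.23 in LIP against EV and 0.49 ± 0.27 in LAP against EV, neither called, and the value in LAP against EV was -0.0068 without LAP 2, the only LAP library above EV. Its counts are uncertain, since 34.7% of its 50-base stretches are shared with other genes, chiefly with a processed copy, Gpx4-ps2.

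Among the superoxide dismutases and catalase, Sod3 (chr5:52363804-52369738) stood out. It encodes the extracellular superoxide dismutase. Its level was 57.4, 47.4 and 40.6 CPM in EV, 50.9, 24.9 and 27.5 CPM in LAP and 25.2, 9.04 and 15.5 CPM in LIP. LIP lay below EV without overlap, LAP 1 lay within the EV range, and LAP 2 was just below LIP 1. The log2 fold change was -1.55 ± 0.30 in LIP against EV, 2.93-fold lower, with an adjusted p of 0.0487, close to the threshold. It was lost without EV 1 (adjusted p 0.0654), without EV 2 (0.161) and without LIP 2 (0.0779), and with other scalings by DESeq2's size factors (0.0537) or library totals (0.067). For LAP against EV it was -0.50 ± 0.24, with an adjusted p of 0.918. Against LAP it was -1.04 ± 0.33, with an adjusted p of 0.191. With libraries of the same number paired, it was -1.08 with an adjusted p of 9.72e-06. Without LAP 2 the unpaired value was -1.25 (adjusted p 0.267), and LAP against EV was -0.30.

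The cytosolic and mitochondrial enzymes were not called. Sod1, the cytosolic copper-zinc enzyme, had 364, 383 and 444 CPM in EV, 429, 446 and 459 CPM in LAP and 368, 296 and 378 CPM in LIP. LIP lay below LAP without overlap, by a log2 fold change of -0.34 ± 0.24 that did not pass. Sod2, the mitochondrial manganese enzyme, and Cat, which decomposes hydrogen peroxide, gave log2 fold changes of -0.21 ± 0.17 and -0.23 ± 0.22 in LIP against EV, neither called.

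**Figure D3:**
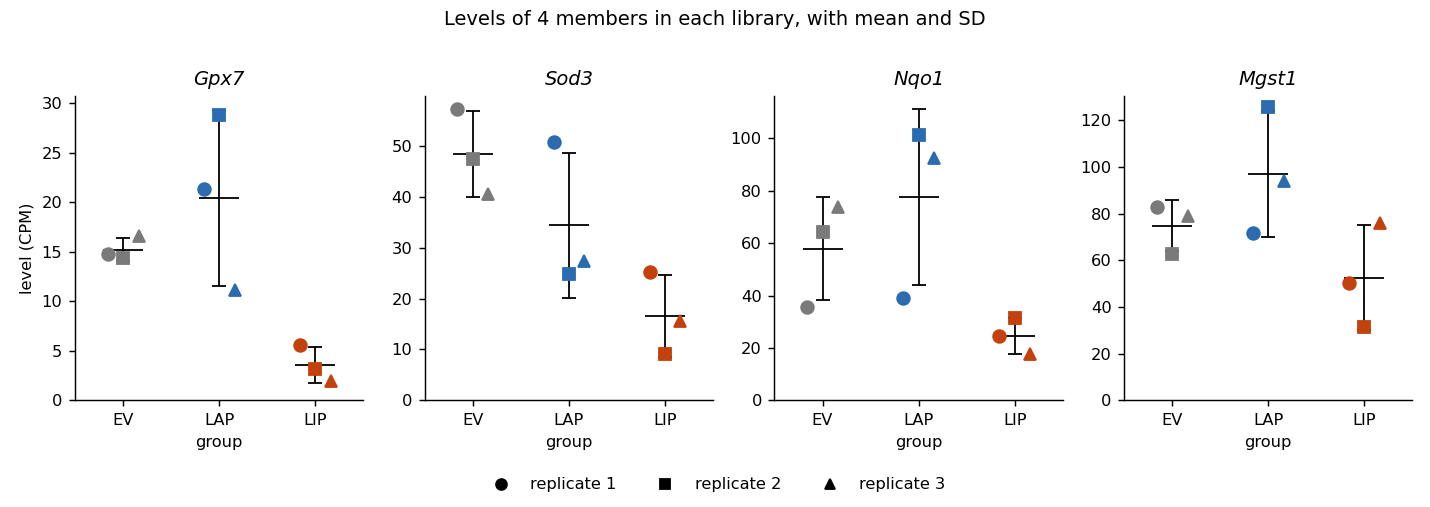
Level in CPM of Gpx7, Sod3, Nqo1 and Mgst1 in each library, with 1 point per library, shape for the replicate number, and horizontal and vertical bars for the mean and SD of 3 libraries per group. The LIP points of Gpx7, Sod3 and Nqo1 lie below all EV points, and those of Mgst1 do not.

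Of the quinone reductases and haem oxygenases, only Nqo1 was called, against LAP. Nqo1 (chr8:107388225-107403205), an NADPH-dependent quinone reductase and a classical NRF2 target, had 35.8, 64.4 and 73.6 CPM in EV, 39.1, 101 and 92.6 CPM in LAP and 24.5, 31.6 and 17.6 CPM in LIP. All LIP libraries lay below all others, although EV 1 and LAP 1 came near them. Against LAP the log2 fold change was -1.64 ± 0.30, 3.11-fold lower, with an adjusted p of 0.0128. This call was lost without LAP 2 (adjusted p 0.129) and without LIP 1 (0.086). Against EV it was -1.24 ± 0.27, with an adjusted p of 0.0786 that did not pass. DESeq2 (adjusted p 0.00836) and edgeR's exact test (0.011) called it. Hmox1, the inducible haem oxygenase and another NRF2 target, had 118 to 181 CPM in EV, 92.9 to 167 CPM in LAP and 105 to 203 CPM in LIP. Its log2 fold change was 0.13 ± 0.24 in LIP against EV and 0.27 ± 0.27 in LIP against LAP, the latter 0.06 without LAP 2. Nqo2 and Hmox2 were low, at 1.18 and 2.98 CPM on average over the 9 libraries, and were not called. Of the exonic bases of Hmox2, 41.4% overlap Cdip1.

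Mgst1 (chr6:138140527-138156755), a glutathione transferase of microsomal and outer mitochondrial membranes, was the most abundant of the 3 membrane transferases. It had 82.9, 62.5 and 79.1 CPM in EV, 71.6, 126 and 94.0 CPM in LAP and 50.1, 31.3 and 76.0 CPM in LIP. LIP 1 and LIP 2 lay below the other groups and LIP 3 within them. The log2 fold change was -0.86 ± 0.28 in LIP against LAP, with an adjusted p of 0.205. With the libraries paired by number it was -0.91, with an adjusted p of 0.000378. Without LAP 2 the unpaired value was -0.66 (adjusted p 0.683). In LIP against EV it was -0.51 ± 0.26, with an adjusted p of 0.509. Mgst2 and Mgst3 were not called in any comparison.

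With the libraries paired by number, LIP against LAP thus called 4 members lower (Gpx7, Mgst1, Nqo1 and Sod3) and 0 higher, with 6.51% of all genes called, 4.79% lower. Without the pair that holds LAP 2, an alternative chosen after the data were seen that leaves 4 libraries and 1 residual degree of freedom, 3 were called lower, Gpx7, Nqo1 and Sod3, and 0 higher (1.88% of all genes were called lower), while Mgst1 gave -0.42 with an adjusted p of 0.231. The same fit of LAP against EV called 3 members lower (Gsta4, Gstm5 and Sod3, with 0.824% of all genes called lower) that were not called with all 3 pairs. The pairing rests on correlated deviations in the data and not on a stated shared batch.

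The soluble glutathione transferases, which conjugate glutathione to electrophiles, had 21 members, 8 of which reached a mean of 20 counts, and 0 were called in any of the 3 comparisons. Gstm5 came nearest, with 18.0, 15.9 and 17.0 CPM in EV, 15.8, 16.7 and 9.80 CPM in LAP and 12.5, 8.03 and 10.4 CPM in LIP. LIP lay below EV without overlap. The log2 fold change was -0.72 ± 0.21, with an adjusted p of 0.194, and 17.9% of its exonic bases overlap 4933431E20Rik on the opposite strand. Gsto1, the most abundant, had 133 to 170 CPM in EV, 133 to 216 CPM in LAP and 107 to 176 CPM in LIP. Gstp1 showed -0.34 ± 0.18 in LIP against EV, and 33.7% of its 50-base stretches are shared, chiefly with Gstp2, so reads of these paralogs may be split. Several rare transferases had an unadjusted p under 0.05. Gstk1 had 2 to 6 counts in EV, 9 to 15 in LAP and 4 to 7 in LIP, and Gstm4 had 7 to 14, 3 to 5 and 5 to 8. Gstt2 had 6 to 10, 12 to 14 and 2 to 9 counts, and Gstm6 had 2 to 5, 1 to 6 and 0 to 2. At such depth, adjusted p-values lay at 0.455 or above in all 3 comparisons.

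No enzyme that makes or recycles glutathione was called. Gclc and Gclm, the catalytic and modifier subunits of the rate-limiting glutamate-cysteine ligase, showed log2 fold changes of 0.01 ± 0.18 and -0.05 ± 0.16 in LIP against EV and -0.09 ± 0.17 and -0.07 ± 0.17 in LAP against EV, where Gclm was 0.02 without LAP 2. Gss, glutathione synthetase, showed -0.19 ± 0.19 and 0.19 ± 0.16. Gsr, which regenerates reduced glutathione, had 118, 126 and 135 CPM in EV, 120, 102 and 158 CPM in LAP and 147, 131 and 172 CPM in LIP. Its log2 fold change in LIP against EV was 0.24 ± 0.16, with an adjusted p of 0.641, and LIP 2 lay within the EV range.

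No peroxiredoxin was called. Prdx1, a cytosolic peroxiredoxin and the member with the highest counts, had 663, 744 and 790 CPM in EV, 700, 1355 and 796 CPM in LAP and 735, 755 and 742 CPM in LIP. The LIP libraries lay within the EV range, and LAP 2 was the highest of all. Prdx2 was higher in LIP than in EV without overlap, by a log2 fold change of 0.24 ± 0.16 that did not pass. Srxn1, which repairs hyperoxidised peroxiredoxins, showed -0.31 ± 0.19 in LIP against EV. In the thioredoxin system, Txn1 had 483 to 525 CPM in EV, 427 to 870 CPM in LAP and 407 to 586 CPM in LIP, and again LAP 2 was the highest. Its mitochondrial counterpart Txn2 and the reductases Txnrd1 and Txnrd2 showed 0.10 to 0.28 in LIP against EV, and Txnip, which binds and inhibits thioredoxin, showed -0.38 ± 0.32. None of these passed.

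The regulators did not pass either. Nfe2l2, which encodes NRF2, had 123, 141 and 155 CPM in EV, 135, 111 and 154 CPM in LAP and 129, 87.4 and 144 CPM in LIP, and its log2 fold change in LIP against EV was -0.21 ± 0.19. Keap1, which targets NRF2 for degradation, had 7.0, 6.13 and 6.24 CPM in EV, 5.40, 6.00 and 6.47 CPM in LAP and 7.88, 13.0 and 7.36 CPM in LIP. LIP lay above both other groups without overlap, mainly through LIP 2. The log2 fold change was 0.54 ± 0.25 against EV and 0.68 ± 0.29 against LAP, with adjusted p-values of 0.461 and 0.460, and without LIP 2 it was 0.23 and 0.37. Of its exonic bases, 11.3% overlap Gm16754. Nfe2l1 showed -0.42 ± 0.27 in LIP against EV.

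Genes that supply or surround these pathways were read from 6 lists of 87 genes, of which 75 reached a mean of 20 counts. In LIP against EV, 1 was called lower, 0 higher, and 50 of the 75 lay below 0 with a median log2 fold change of -0.15 against 0.01 over all such genes. An unadjusted p under 0.05 was reached by 17 lower and 2 higher genes, which is 25.3% of the 75 against 14.2% of such genes. The lists were chosen with earlier results of these data known, so this larger share is not independent support. The called gene was Aldh1l2, a mitochondrial formyltetrahydrofolate dehydrogenase that yields NADPH. It had 134, 144 and 145 CPM in EV, 142, 142 and 83.3 CPM in LAP and 55.2, 57.7 and 90.5 CPM in LIP. LIP lay below EV without overlap, by a log2 fold change of -1.05 ± 0.19 with an adjusted p of 0.0401. The call held without LIP 3 and was lost without any other of the 6 libraries (adjusted p 0.0566 to 0.168).

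In the cystine list, Slc7a11, the cystine-glutamate antiporter that brings in cystine for glutathione synthesis, had 20.03, 21.8 and 34.3 CPM in EV, 22.1, 18.0 and 15.2 CPM in LAP and 13.1, 8.81 and 11.2 CPM in LIP. LIP lay below both other groups. The log2 fold change against EV was -1.20 ± 0.24, with an adjusted p of 0.0586 that missed the threshold. DESeq2 (adjusted p 0.00156), edgeR's exact test (0.00454) and the fit of all 9 libraries (0.0251) called it. Anpep, a membrane aminopeptidase, had 1.80 to 1.96 CPM in EV, 2.34 to 3.30 CPM in LAP and 0.807 to 1.11 CPM in LIP, without overlap among the groups. It was called in LIP against LAP, by -1.49 ± 0.35 with an adjusted p of 0.0471 that held only without LAP 3 or without LIP 3 and rose to between 0.0681 and 0.229 without any other library. It showed -0.96 ± 0.30 in LIP against EV and 0.54 ± 0.24 in LAP against EV, neither called.

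In the other lists, the smallest p in LIP against EV belonged to Msrb2, a mitochondrial methionine sulfoxide reductase (-0.83 ± 0.22), to Cbr3, a carbonyl reductase (-0.93 ± 0.25), to Mt1, a metallothionein (-1.05 ± 0.28), and to Secisbp2 of selenoprotein synthesis (0.26 ± 0.19). Adjusted p-values were 0.148, 0.154, 0.154 and 0.688. In LIP against LAP the smallest p of the oxidant list was that of Xdh, xanthine dehydrogenase, at -1.30 ± 0.34 with an adjusted p of 0.0819, which was 0.0495 with DESeq2 and 0.118 without LAP 2. Secisbp2 showed 0.35 ± 0.23 there, Cbr3 -1.23 ± 0.30 (adjusted p 0.0537, and 0.00707 with DESeq2, 0.0291 with the exact test, 0.0244 with all 9 libraries and 0.301 without LAP 2), Msrb2 -0.91 ± 0.29 and Aldh1l2 -0.83 ± 0.25. In LAP against EV, edgeR called 0 of the 87. An unadjusted p under 0.05 was reached by 3 of the 75 (4%, against 3.49% of all genes of that depth). Without LAP 2 it was 1 (1.33%, against 2.23%). The smallest p of the lists belonged to Anpep, Txnl1, Pstk, Nnt, Cbr1 and Atox1. Atox1, a copper chaperone, showed 0.67 ± 0.25, with 40.4 to 44.7 CPM in EV and 47.5 to 108 CPM in LAP, the highest in LAP 2, without which it showed 0.19. Log2 fold changes of the others ran from -0.57 (Nnt) to 0.54 (Anpep). Without LAP 2, Pstk showed -0.042, on the other side of 0, while Txnl1 showed 0.10 and Cbr1 0.18.

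Pairing moved these lists more than the members. With libraries paired by number, LIP against LAP called 15 of the 87 lower in place of 1, and 0 higher (4.79% of all genes were called lower). They were Slc7a11, Cth, Anpep, Dpep1, Glrx, Msrb2, Aldh1l2, Bach2, Blvrb, Cbr1, Cbr3, Ptgr1, Xdh, Mt1 and Mt2. Cth, which makes cysteine from cystathionine, had 9.10, 7.83 and 2.62 CPM in LIP against 20.3, 27.5 and 6.36 CPM in LAP, lower in each pair, while the groups overlapped. Without the pair that holds LAP 2, 6 of the 15 were called lower (Anpep, Cbr3, Cth, Mt1, Mt2 and Xdh) and no other gene of the lists, with 1.88% of all genes called lower. That fit was chosen after the data were seen and leaves 1 residual degree of freedom. The lists were chosen with earlier results known, so these calls are not independent support.

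**Figure D4:**
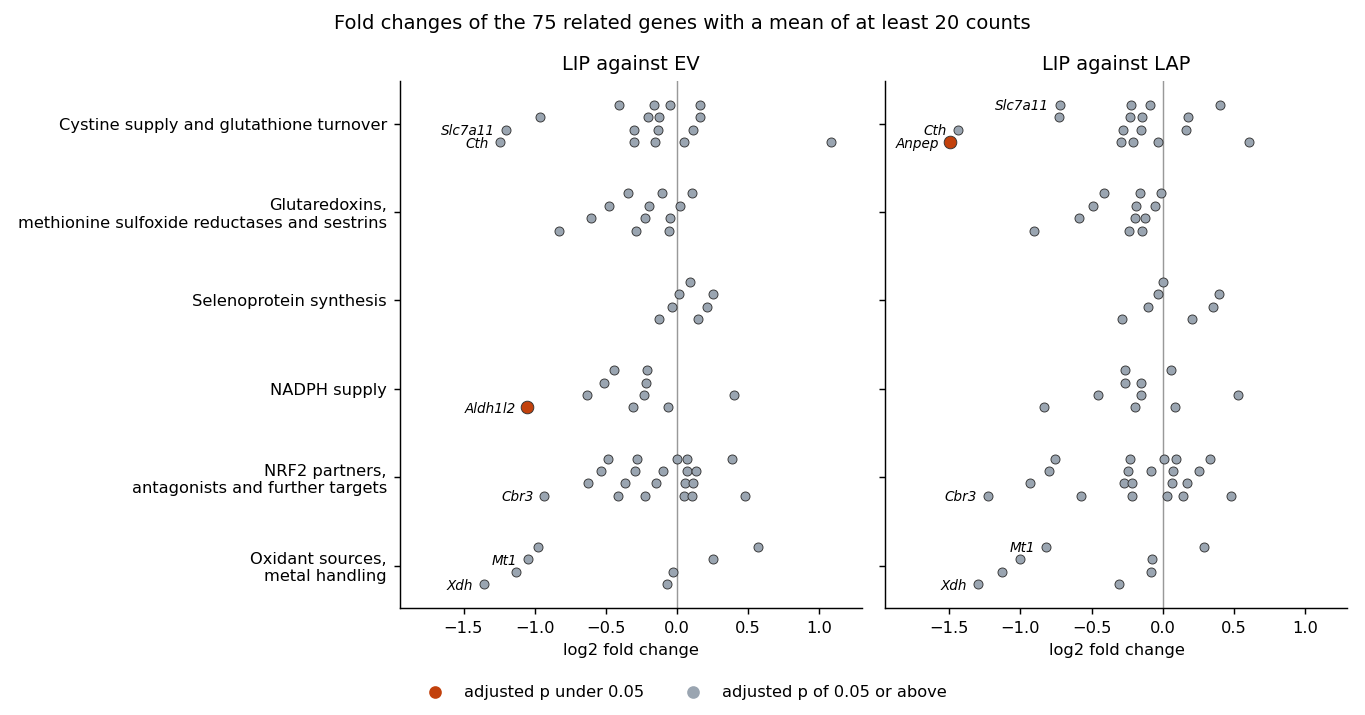
Log2 fold change of the 75 related genes that reached a mean of 20 counts, by list, for LIP against EV (left) and LIP against LAP (right). Each point is 1 gene, the vertical offset within a list only separates points, and the filled points mark Aldh1l2 on the left and Anpep on the right.

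The lower levels in LIP came with lower fibroblast and higher epithelial marker sums, each without overlap with EV. Both sums overlapped between LIP and LAP. Of the fibroblast list, Col1a1, Col1a2, Pdgfra, Pdgfrb and Lum lay lower in LIP than in EV without overlap. Col3a1, Fn1, Vim, Thy1, S100a4 and Dcn overlapped EV. Col1a2 had 7397 to 8120 CPM in EV and 2096 to 4386 CPM in LIP, and Vim had 4155 to 4980 and 3358 to 5092 CPM, neither called. Lum was at 0 counts in all LIP libraries and was low elsewhere, with 45, 14 and 3 counts in EV and 22, 1 and 3 in LAP. It was not called in LIP against EV (adjusted p 0.0925). S100a4, also a listed fibroblast marker, overlapped, with 1544 to 1921 CPM in EV and 1312 to 2485 CPM in LIP. Krt8, which made up most of the epithelial sum, had 397 to 477 CPM in EV and 502 to 792 CPM in LIP. Its log2 fold change was 0.48 ± 0.20. Krt18 had 0.644 to 1.03 CPM in EV and 1.27 to 2.39 CPM in LIP, with 0.99 ± 0.36. Cdh1 of the same list went the other way, with 2.64 to 3.69 CPM in EV and 0.786 to 2.45 CPM in LIP. Its log2 fold change was -1.10 ± 0.38. Krt8, Krt18 and Cdh1 were not called, and Epcam and Krt5 overlapped EV. Whether these shifts have a part in the lower Gpx7, Sod3, Nqo1 or Aldh1l2 was not tested, and in bulk RNA fewer cells of a type cannot be told apart from less RNA per cell.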

How the data were processed

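RNA of 9 libraries, 3 each of EV, LAP and LIP, was sequenced by the authors as 50-base single-end reads (TruSeq RNA v2), and per the submitters' processing notes was processed with bcl2fastq 1.8.3, TopHat 1.4.1 and HTSeq 0.5.4. The notes name mm10 and also GRCh38, and the strand setting and the handling of multi-mapping reads are not given in the sources used here. The authors deposited raw counts per gene symbol, without normalization. All 60 members were found in RefSeq on GRCm38.p6.

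Groups were compared in pairs, on 6 libraries and the genes detected by 1 count or more. Scaling was by TMM (factors 0.949 to 1.10 over all 9 libraries) and testing with the quasi-likelihood test of edgeR 4.0.16 in R 4.3.3, without covariates, with Benjamini-Hochberg adjustment and a threshold of 0.05. The SE of a log2 fold change was taken as its size over the root of the F statistic. CPM were scaled by TMM over all libraries. For single members, CPM were also tested by exact permutation (two-sided). Exon lengths and shared 50-base stretches came from GENCODE on GRCm38. The test was tried on simulated data. Figures were drawn with matplotlib 3.10.9.

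Described library by library were members with an adjusted p or an unadjusted p under 0.05 in any comparison and the most abundant member of each role. Of the related lists, called genes and the smallest p of each list were named, and genes named only for a paired call and further members given by fold change were added after their values were seen. The members and lists were chosen with earlier results of these data known.

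The labels number the libraries 1 to 3 in each group. Deviations from the group mean of same-numbered libraries correlated across 11535 genes at r = 0.546, 0.223 and 0.517 between LAP and EV and at 0.577, 0.421 and 0.480 between LIP and LAP, and these were taken as paired. Between LIP and EV they were 0.311, -0.119 and 0.243, and no pairing was taken. This choice was made from the data, and pairs that LAP shares with both groups would also link LIP with EV. Alternatives were DESeq2 1.42.0, edgeR's exact test, both together, DESeq2's size factors, library totals, filterByExpr, at least 10 counts in every library, a single fit of all 9 libraries, the replicate block, with and without pair 2, leaving out each library, an adjusted p under 0.01 and an added 2-fold limit.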

Additional observations from a re-analysis of the deposited data

Results flagged for a closer look

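Gpx7, Nqo1 and Anpep were noted because the effects of LIP and LAP on them differed by a direct test, edgeR's quasi-likelihood test of LIP against LAP. The difference was -2.51 on the log2 scale for Gpx7 (adjusted p 0.00357, lower in 3 of 3 LIP libraries than in any LAP library), -1.64 for Nqo1 (adjusted p 0.0128, likewise 3 of 3) and -1.49 for Anpep (adjusted p 0.0471, likewise 3 of 3). The exact permutation p of each was 0.1, the smallest possible here, and it follows from the lack of overlap. Both rest on the same libraries as the calls and are not separate support for them. Of the 11534 genes that averaged 20 counts or more, 14.8% also showed no overlap of LIP with LAP, in either direction. Without LAP 2 none of these calls held, with adjusted p-values of 0.0908 for Gpx7, 0.129 for Nqo1 and 0.133 for Anpep.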

How the results depend on the processing

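Members called in LIP against EV (2) and in LIP against LAP (2) were sensitive to the processing, while 0 members were called in LAP against EV under all alternatives except the replicate block without pair 2. In LIP against EV the count was 3 with DESeq2, the exact test or both together, which add Nqo1, 1 with DESeq2's size factors, 1 with library totals, 0 with filterByExpr, 0 with at least 10 counts in every library and 0 at an adjusted p under 0.01, and 0 to 4 without 1 library, with 0 without EV 2 or LIP 2. In LIP against LAP it was 0 with either filter, 1 at an adjusted p under 0.01 and 0 to 4 without 1 library, with 0 without LAP 2. The numbers pair LIP and LAP by the data, and the replicate block raised this count to 4 and changed no call in LAP against EV. Without pair 2, the block (chosen after the data were seen, 1 residual degree of freedom) called 3 members, 6 related genes and 390 genes in all in LIP against LAP, and 3 members (Gsta4, Gstm5 and Sod3, all lower), 2 related genes (Aldh1l2 and Slc7a11, both lower) and 273 genes in all in LAP against EV. There it gave Gpx7 -0.0070, Gpx1 -0.11, Gpx8 -0.11, Gsr 0.12, Gstm6 -0.54, Nfe2l2 0.060, Txn1 -0.16 and Pstk -0.046, all on the other side of 0. In LIP against EV no pairing was taken, and the block called 3 members, adding Nqo1 (-1.21, adjusted p 0.00995).

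Related genes called in LIP against EV (1) numbered 0 with library totals, either filter or an adjusted p under 0.01, 5 with DESeq2, 3 with the edgeR exact test, 2 with both, 2 in the fit of all 9 libraries, 7 with the block and 0 to 5 without 1 library. In LIP against LAP (1) they numbered 0 with library totals, either filter or an adjusted p under 0.01, 3 with DESeq2, 3 with the exact test, 2 with both, 2 in the fit of all 9 libraries, 15 with the block and 0 to 8 without 1 library. In LAP against EV they numbered 0 in all other fits.

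Over all genes, LIP against EV gave 72 calls, and 36 with library totals, 4 with filterByExpr, 0 with at least 10 counts in every library, 321 with DESeq2, 301 with the exact test, 257 with both, 157 in the fit of all 9 libraries, 467 with the block, 13 at an adjusted p under 0.01 and 22 to 367 without 1 library. LAP against EV gave 11, and 3 with filterByExpr, 0 with at least 10 counts, 26 with DESeq2, 33 with the exact test, 25 with both, 5 in the fit of all 9 libraries, 54 with the block, 6 at an adjusted p under 0.01 and 6 to 62 without 1 library. LIP against LAP gave 190, and 113 with library totals, 2 with filterByExpr, 0 with at least 10 counts, 1183 with the block, 36 at an adjusted p under 0.01 and 7 to 448 without 1 library, with 7 without LAP 2. The cause of the loss under the filters was not tested.

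Single log2 fold changes that crossed 0 under an alternative were uncalled. For LIP against EV, library totals gave Gpx1 0.014 and Txn1 0.0048 and the replicate block gave Gsto1 -0.015. For LAP against EV, Gsr was 0.0058 with filterByExpr, 0.0059 with at least 10 counts in every library and 0.00089 with all 9 libraries. With 1 library left out, the ranges that crossed 0 in LIP against EV were -0.18 to 0.15 for Gpx1, -0.12 to 0.21 for Gsto1, -0.12 to 0.35 for Hmox1, -0.037 to 0.081 for Prdx1 and -0.21 to 0.076 for Txn1. Those in LAP against EV were -0.11 to 0.67 for Gpx1, -0.21 to 0.38 for Gpx8, -0.20 to 0.13 for Gsr, -0.31 to 0.62 for Gstm6, -0.37 to 0.085 for Hmox1, -0.20 to 0.046 for Nfe2l2, -0.19 to 0.38 for Txn1 and -0.042 to 0.76 for Pstk, and leaving out LAP 2 crossed 0 for each of them. Those in LIP against LAP were -0.67 to 0.075 for Gpx1, -0.28 to 0.049 for Nfe2l2 and -0.40 to 0.14 for Txn1. Related genes named for another comparison also crossed 0, Pstk (-0.024 to 0.32) and Txnl1 (-0.025 to 0.11) in LIP against EV, Msrb2 (-0.017 to 0.25) and Xdh (-0.61 to 0.60) in LAP against EV, and Atox1 (-0.48 to 0.38), Nnt (-0.33 to 0.39) and Pstk (-0.54 to 0.25) in LIP against LAP. The cause was not tested. Median log2 fold changes of the 42 members ran from -0.23 to -0.07 in LIP against EV, -0.02 to 0.20 in LAP against EV, below 0 only with the block without pair 2, and -0.32 to -0.11 in LIP against LAP. Depth limits the 18 members with a mean under 20 counts.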
